A study of Rattus norvegicus with 27 samples.

Results

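The genes described here encode the receptors through which cells sense the fast and modulatory neurotransmitters: glutamate, GABA, acetylcholine, serotonin, noradrenaline and adrenaline. They were taken as the genes whose single symbol in the platform annotation names an AMPA (Gria), kainate (Grik), NMDA (Grin1 to Grin3), delta (Grid), metabotropic glutamate (Grm), GABA-A (Gabr), GABA-B (Gabbr), muscarinic (Chrm), nicotinic (Chrn), serotonin (Htr) or adrenergic (Adra, Adrb) receptor subunit, which gave 85 of the 14217 genes measured. A gene was called detected when at least 1 group of arrays had a mean log2 signal of 5.99 or more, the median of all values, and 24 of the 85 were. The study asked how OPCs, the progenitors of myelin-forming oligodendrocytes, respond to the T cell cytokine IFNγ while they differentiate. It measured RNA on 27 Affymetrix rat arrays, 3 for each of 9 groups, from 3 donors that each gave 1 array to every group. OPCs were selected with beads against the surface ganglioside A2B5 from cortices of rat pups of postnatal days 4 to 6 and expanded with Noggin, a BMP antagonist, in PDGF-AA, which keeps them proliferating and undifferentiated. The 0 h group was kept in PDGF (20 ng/mL). In the other groups PDGF was withdrawn, and thyroid hormone (T3, 10 nM) alone or together with IFNγ (10 ng/mL) was present for 8, 24, 48 or 96 h.

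OPCs are the glial cells that receive synapses from neurons. Glutamate opens AMPA, kainate and NMDA channels, which let in cations, while GABA opens GABA-A channels, which pass chloride. Metabotropic glutamate, GABA-B, muscarinic, adrenergic and most serotonin receptors act more slowly through G proteins. A channel is assembled from several subunits, and the subunit composition sets its ion selectivity and pharmacology. In the oligodendrocyte lineage such receptors are known for tying proliferation, differentiation and vulnerability to excitotoxic injury to the activity of nearby axons.

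The deposited values are log2 signals between 2.28 and 14.5, with array medians from 5.95 to 6.03. Precision is limited by the number of arrays, which is 3 a group. A T3 culture had T3 and no PDGF and was older than the PDGF culture, and these differences cannot be told apart because PDGF arrays exist at 0 h only. The 4 comparisons of T3 with PDGF share the 3 PDGF arrays. Of the markers that bear on the cell type, the 6 OPC markers measured were detected in every group, and the mean of 7 mature oligodendrocyte markers went from 5.61 to 5.74 on the PDGF arrays to 12.17 to 12.65 on the T3 arrays at 96 h and 10.04 to 10.56 on the T3+IFNγ arrays at 96 h. The mean of 10 neuron markers lay between 5.71 and 6.63 over all arrays, with 5.71 to 5.97 in T3 and 6.38 to 6.59 in T3+IFNγ at 96 h, and 5 to 7 of the 10 were detected in each group. Of these markers 3 were called higher with IFNγ at 96 h, Tubb3, Nefm and Nefl. Snap25, Syp, Tubb3, Nefm and Stmn2 were detected in every group, and Rbfox3 in every group but T3 at 48 h. The synaptic vesicle gene Syt1 and the transmitter genes Slc17a7 and Gad2 were below the detection level in every group. Of 7 microglia markers, 4 were detected in PDGF (array means 5.91 to 7.05). At 96 h, 0 of the 7 were detected in T3 (4.92 to 5.18) and 5 in T3+IFNγ (6.16 to 7.53). At that time 6 of the 7 were called lower with T3 against PDGF (85.7%, beside 29.5% of all genes). With IFNγ 3 were called higher (42.9%, beside 7.91%). Of 6 astrocyte markers, 5 were detected in every group (array means 8.05 to 8.78 in PDGF and 9.31 to 9.86 in T3 at 96 h). The part of these other cells in the results below was not tested. In such cultures fewer cells of a type and less RNA per cell cannot be told apart. The T3+IFNγ arrays of donor 2 at 8, 24 and 48 h had a higher ratio of 3' to 5' signal, a sign of RNA quality, than the T3 arrays of that donor in each of 3 control genes. On the log2 scale the Gapdh ratio was 0.372 against −0.176 at 8 h, 0.108 against −0.064 at 24 h and −0.135 against −0.261 at 48 h. The hexokinase ratio at 48 h was 2.91 against 1.93, the highest of the 27 arrays, and the beta-actin ratio 1.16 against 0.818. Counts and calls without these T3+IFNγ arrays are given below where they differ. The PDGF array of donor 2 had the highest ratio of the 3 PDGF arrays in each control gene. For Gapdh it was 0.066, against −0.246 and −0.075 in donors 1 and 3. This array enters all 4 comparisons of T3 with PDGF, and no fit left out this array alone.

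Most receptor genes were at a low signal in these cells. Of the 85 genes, 24 (28.2%) were detected, against 71.3% of all 14217 genes. The ionotropic glutamate receptors gave 9 of the 24: Gria2, Gria3 and Gria4 of 4 AMPA subunits, Grik2, Grik4 and Grik5 of 5 kainate subunits, and Grin1, Grin2a and Grin2c of 7 NMDA subunits. The GABA receptors gave a further 7: Gabra4, Gabrb1, Gabrb2, Gabrd and Gabrg1 of 16 GABA-A subunits, and both subunits of the GABA-B receptor, Gabbr1 and Gabbr2. Chrm3 and Chrm5 were detected of 5 muscarinic receptors, Chrna7 and Chrng of 16 nicotinic subunits, Adra2a and Adra2b of 6 alpha-adrenergic receptors, Grm8 of 7 metabotropic glutamate receptors and Htr4 of 14 serotonin receptors. Neither of the 2 beta-adrenergic receptors nor the delta receptor Grid1 was detected. The highest group means of the 13 other serotonin receptors ran from 3.21 to 5.74, of the 14 other nicotinic subunits from 3.68 to 5.75 and of the 11 other GABA-A subunits from 3.15 to 5.88. Just inside the detection level were Htr4 (6.11), Gabra4 (6.20) and Grin2a (6.21), and just outside it Grid1 (5.95), Gabra5 (5.88) and Grin3b (5.81). A low signal is that of a probe set, which may also be a poor probe set, so it is no proof that a receptor is missing, and signals of different genes are not compared.

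**Figure D1:**
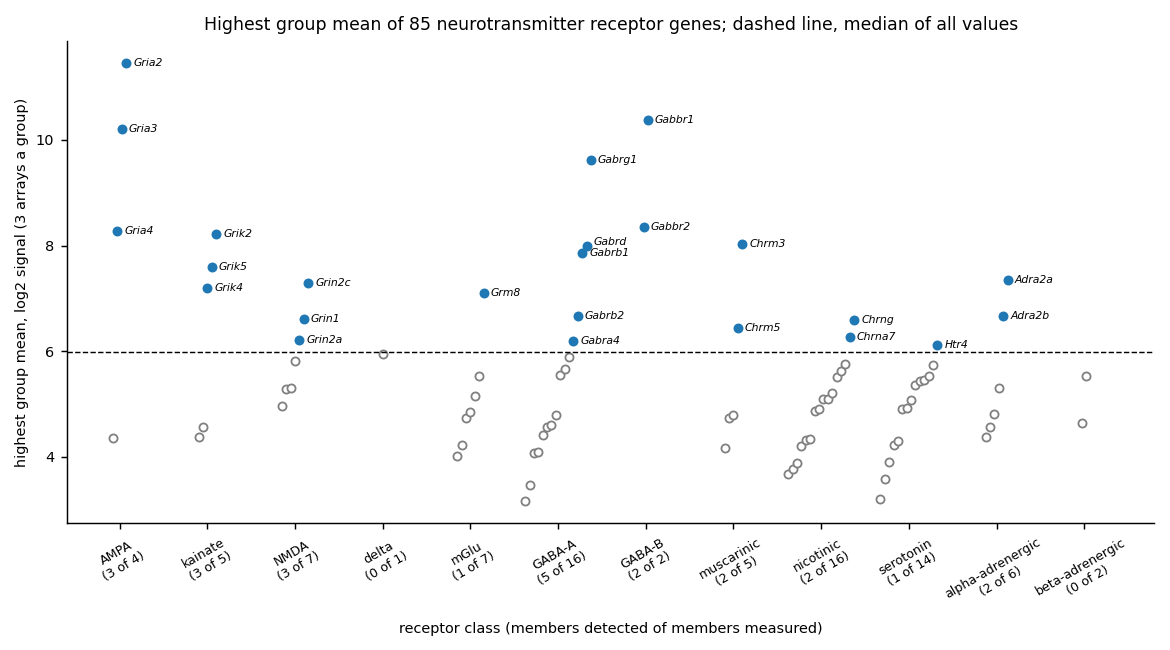
Highest group mean of each of the 85 receptor genes (log2 signal, y axis) by receptor class (x axis, with members detected of members measured). Filled, named points are the 24 genes at or above the dashed line, the median of all values (5.99); open points are the 61 others, and 13 of 14 serotonin receptors are among them.

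Of the receptor genes that changed with T3, most rose, though neither rises nor falls reached their share among all genes on the deposited scale. Called means here a limma p below 0.05 after Benjamini-Hochberg adjustment over the 14217 genes. Against PDGF, 4 of the 85 genes were called at 8 h (4.71%, beside 12.7% of all genes), 3 of them higher and 1 lower (beside 7.31% and 5.37%). At 24 h 14 were called (16.5% beside 34.9%), 11 higher and 3 lower (beside 17.1% and 17.8%). At 48 h 16 were called (18.8% beside 43.1%), 12 higher and 4 lower (beside 17.5% and 25.7%), and at 96 h 20 (23.5% beside 53%), 16 higher and 4 lower (beside 23.4% and 29.5%). At each time the share called among the receptor genes was below that of all genes, for calls higher and for calls lower alike. These differences were not tested. The median change of the 85 genes was 0.02, 0.00, 0.10 and 0.11 on the log2 scale at the 4 times, beside 0.01, 0.00, 0.00 and 0.01 over all genes. Centring each array on its median moved the median of all genes by 0.13 at 48 h and 0.16 at 96 h, and the calls at 96 h then became 35 higher and 3 lower and those at 48 h 20 higher and 2 lower, so the counts of rises at these times depend on the scale. All genes turned too, from 23.4% higher and 29.5% lower to 33.2% and 24% at 96 h, and from 17.5% and 25.7% to 24.5% and 19.7% at 48 h. At a change of at least 2-fold, 7 genes were called at 96 h, a count without a background, since the share of all genes at that limit was not counted.

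**Figure D2:**
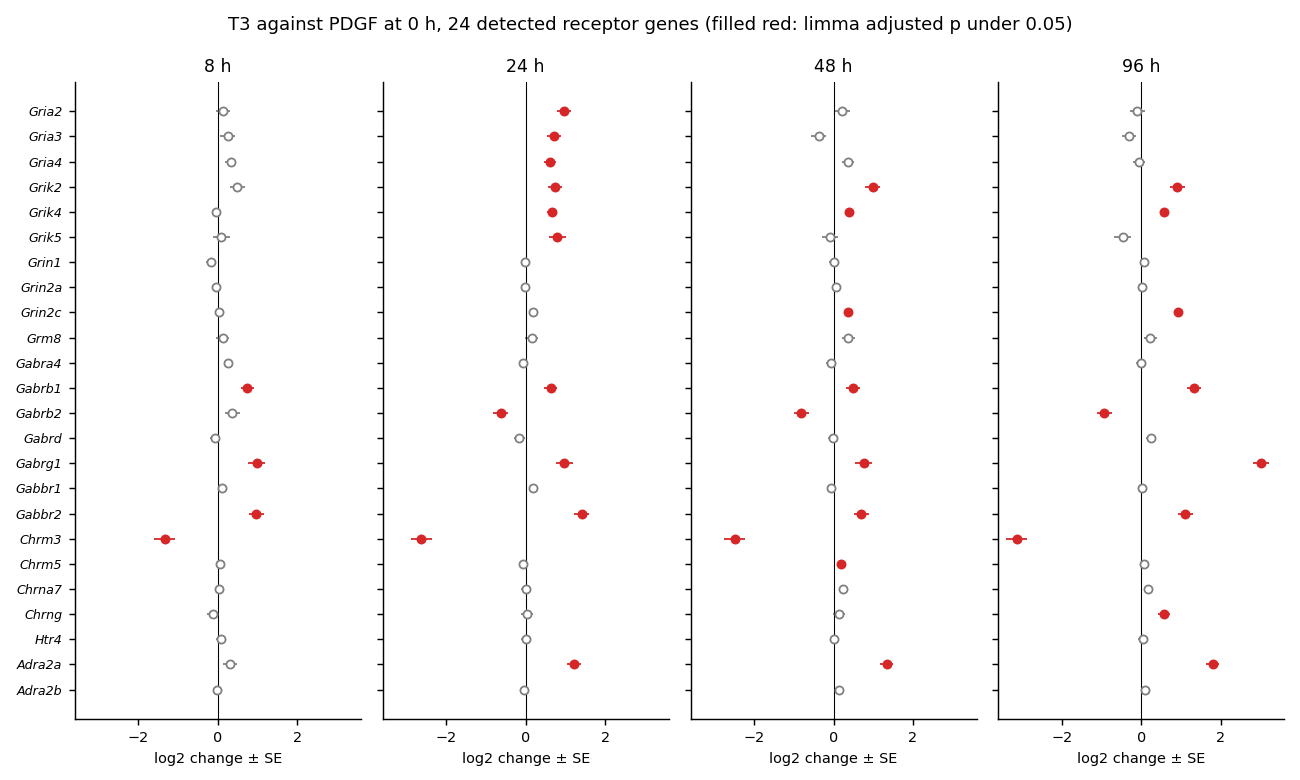
Log2 change of the 24 detected receptor genes between T3 and PDGF at 0 h (x axis; points, difference of means of 3 arrays each; bars, SE) at 8, 24, 48 and 96 h, with called genes filled. Chrm3 lies to the left and Gabrg1, Gabrb1 and Gabbr2 to the right of 0 at all 4 times, and the 3 AMPA subunits are called at 24 h and at no other time.

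With IFNγ added, fewer receptor genes changed and most of those fell, though the splits at 8 and 48 h moved with the setting. Falls were a smaller share of the receptor genes than of all genes at 24 and 48 h and on average. At 8 and 96 h they were a larger share, and rises were a smaller share at each time. These differences were not tested. T3+IFNγ against T3 gave 3 calls at 8 h (3.53% of the 85, beside 5.26% of all genes), 1 higher and 2 lower (beside 3.69% and 1.58%). It gave 5 at 24 h (5.88% beside 12.3%), 1 higher and 4 lower (beside 5.96% and 6.35%). At 48 h there were 7 (8.24% beside 16.1%), 2 higher and 5 lower (beside 7.58% and 8.53%), and at 96 h 8 (9.41% beside 13.5%), 0 higher and 8 lower (beside 7.91% and 5.63%). In the fit with donors as blocks the count at 48 h was 12, and without donor 2 it was 0 and without donor 3 it was 1. The count at 8 h was 0 when the donor 2 T3+IFNγ arrays of 8 and 24 h were left out, and also without donor 2 or donor 3, and at 24 h it was 1 without donor 2 or donor 3. Without the donor 2 T3+IFNγ arrays of 8, 24 and 48 h, a setting added after the data had been seen, the counts at 8, 24, 48 and 96 h were 0, 5, 6 and 10. At 96 h the count was 6 without donor 2, 5 without donor 3 and 10 without donor 1. The split at 96 h also moved: it was 2 higher and 8 lower without donor 1, where Chrm3 and Grik2 were called higher (0.82 and 0.55), 3 higher and 7 lower when only the groups compared were fitted, where Chrm3, Grik2 and Grik5 were, and 1 higher and 10 lower with donors as blocks. Fitting only the groups compared also ended the calls with IFNγ of Gabra4 and Gabrb1 at 8 h, of Grik4 and Grin3a at 24 h, of Grik2, Grik4, Gabra6 and Chrna5 at 48 h and of Grin1 at 96 h. Among the calls that the fit with donors as blocks added were Gabra2 at 24 and 48 h (−0.34 and −0.32, adjusted p = 0.0326 and 0.039). It also added Grid1, Grin2c and Grm7 at 48 h (−0.36, −0.26 and −0.60, adjusted p = 0.0155, 0.0481 and 0.0462). At 96 h it added Gabra4 (−0.33, adjusted p = 0.043) and Chrna2 (−0.34, adjusted p = 0.0445). Averaged over the 4 times, 14 genes were called (16.5%, beside 31.2% of all genes), 2 higher and 12 lower (beside 12.7% and 18.5%). With each array centred on its median, the calls at 96 h became 0 higher and 11 lower, beside 5.61% and 11% of all genes. Those of the average became 2 higher and 20 lower, beside 10.1% and 32% of all genes. Counts of falls with IFNγ thus depend on the scale, and all genes turned too at 96 h. In all, 32 of the 85 genes (37.6%) were called in at least 1 of the 8 comparisons, beside 68.3% of all genes. They were 18 of the 24 detected (75%, beside 84.3% of all detected genes) and 14 of the 61 others (23%, beside 28.4%). The groups did not overlap in any of the 77 calls of receptor genes, nor in 97.1% of the 27141 calls of all genes.

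**Figure D3:**
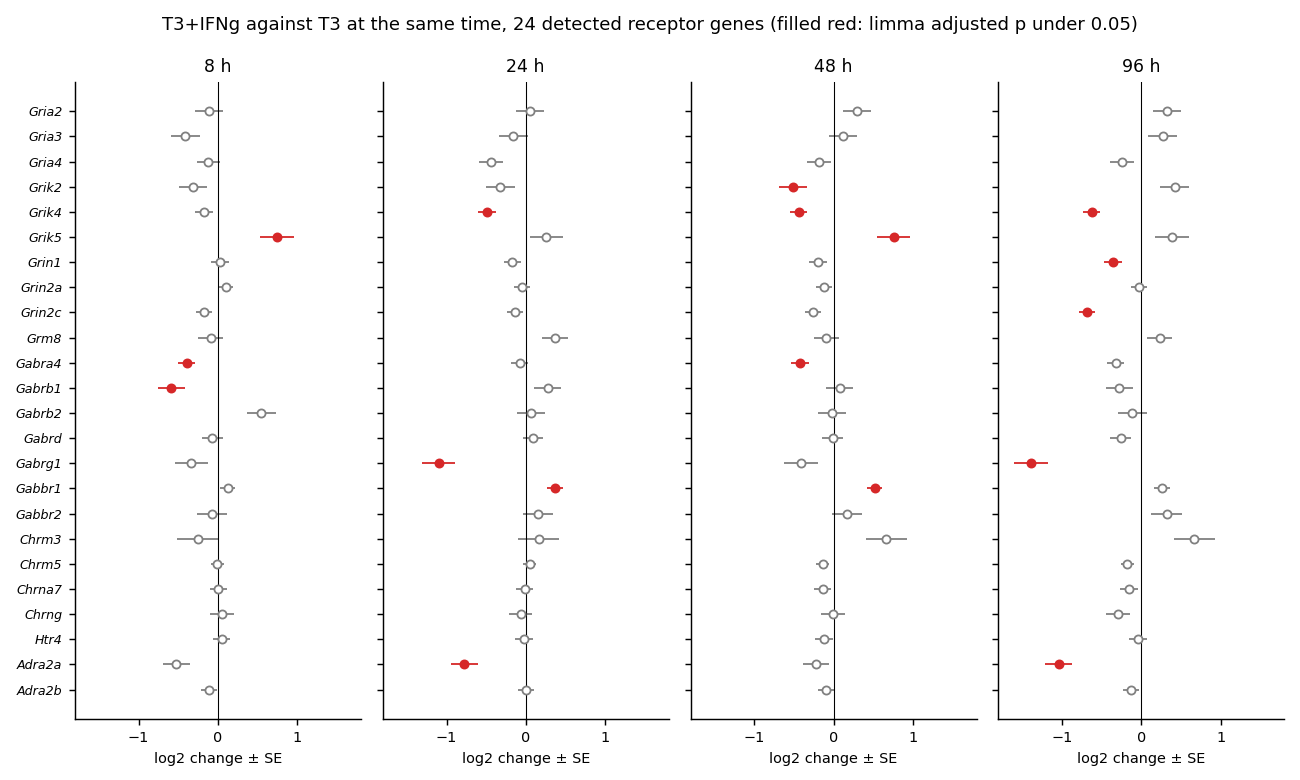
Log2 change of the 24 detected receptor genes between T3+IFNγ and T3 at the same time (x axis; points, difference of means of 3 arrays each; bars, SE), with called genes filled. At 96 h the 5 called genes, Grik4, Grin1, Grin2c, Gabrg1 and Adra2a, lie to the left of 0, and Grik5 and Gabbr1 lie to the right of 0 at each time.

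The 3 detected AMPA receptor genes rose at 24 h of T3 and were lower again by 96 h. Gria2, the subunit whose presence keeps calcium out of the channel, had log2 signals of 10.65, 10.36 and 10.34 on the PDGF arrays of donors 1, 2 and 3, the order used below, and 11.15, 11.52 and 11.56 with T3 at 24 h. By 96 h of T3 the values were 9.95, 10.63 and 10.46. All 3 donors were thus above the PDGF arrays at 24 h, and the arrays overlapped the PDGF arrays at 96 h. The rise at 24 h was 0.96 ± 0.18 (SE, n = 3 arrays a group, log2 scale, limma adjusted p = 0.000161), or 1.95-fold, and the change at 96 h was −0.10 ± 0.18 (adjusted p = 0.669). Gria3 stood at 9.50, 9.43 and 9.56 in PDGF, rose to 9.79, 10.34 and 10.50 by 24 h and returned to 8.79, 9.27 and 9.53 by 96 h. Gria4 went from 7.76, 7.47 and 7.76 to 8.11, 8.40 and 8.32 and then 7.42, 7.72 and 7.66 at these times. For both, the lowest 24 h array was above the highest PDGF array. Their rises at 24 h were 0.71 ± 0.18 (adjusted p = 0.00355) and 0.61 ± 0.15 (adjusted p = 0.00297). The call for Gria3 was lost without donor 2 or donor 3 (adjusted p = 0.111 and 0.0658) and that for Gria4 without donor 2 (adjusted p = 0.085). A comparison of T3 at 96 h with T3 at 24 h, added after the values had been seen, gave falls of 1.06 for Gria2, 1.01 for Gria3 and 0.68 for Gria4 (adjusted p = 5.34e-05, 0.000105 and 0.00115), in a comparison that called 39.7% of all genes, 15.1% higher and 24.6% lower. A second probe set of Gria2 and one of Gria3 also rose at 24 h, by 1.08 and 0.76.

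IFNγ left the AMPA genes without a call at any single time. Gria4 differed by −0.44 at 24 h (adjusted p = 0.0646), with 7.66, 8.00 and 7.84 on the T3+IFNγ arrays, each below the 3 T3 arrays, and by −0.25 ± 0.08 on average over the 4 times (adjusted p = 0.017, lost without donor 3 at 0.297). Gria3 differed by −0.41 at 8 h (adjusted p = 0.273). Gria2 differed by 0.29 at 48 h and 0.32 at 96 h (adjusted p = 0.305 and 0.277). A second probe set of Gria3 was 0.46 higher with IFNγ at 96 h (adjusted p = 0.0408), where the one used here differed by 0.27 (adjusted p = 0.399). Gria1, an AMPA subunit known from synaptic plasticity in neurons, was not detected, with a highest group mean of 4.35, and took another course, with a change of 0.11 at 24 h of T3 and a rise of 0.45 at 96 h (adjusted p = 0.000533).

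**Figure D4:**
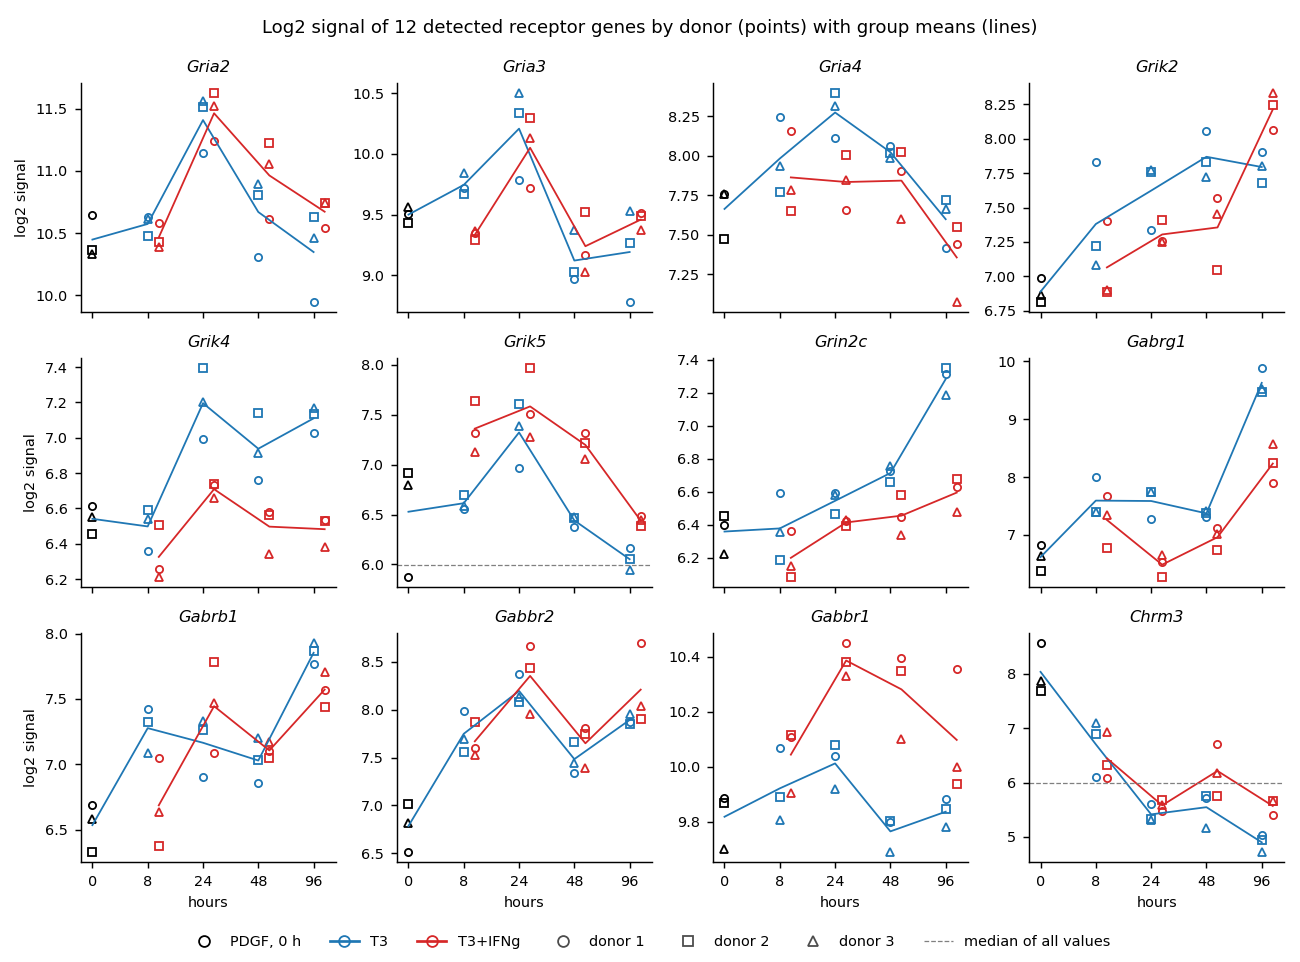
Log2 signal (y axis, a scale for each gene) of 12 detected receptor genes by hours in T3 (blue) or T3+IFNγ (red, drawn slightly to the right), with PDGF at 0 h in black; symbols are donors and lines join group means. The 3 AMPA genes peak at 24 h with T3, Gabrg1 and Grin2c stand highest with T3 at 96 h, and Chrm3 falls from PDGF on.

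The kainate receptor genes followed 3 different courses. Grik2, which encodes a channel-forming subunit, rose from 6.99, 6.81 and 6.86 in PDGF to 8.06, 7.83 and 7.72 with T3 at 48 h and 7.91, 7.68 and 7.80 at 96 h, with no overlap. The rises were 0.74, 0.98 and 0.91 at 24, 48 and 96 h (SE 0.18, adjusted p = 0.00192, 7.53e-05 and 0.00012), and 0.49 at 8 h was called with donors as blocks (adjusted p = 0.0433, against 0.0692 without). The call at 24 h was lost without donor 2 (adjusted p = 0.077) or donor 3 (0.0715). With IFNγ at 48 h its values were 7.57, 7.05 and 7.45, below those with T3, a fall of 0.51 ± 0.18 (adjusted p = 0.0482), and at 96 h they were 8.06, 8.25 and 8.33, above those with T3 by 0.42 ± 0.18 (adjusted p = 0.129, not called). The call at 48 h was lost without donor 2 (adjusted p = 0.437), without donor 3 (0.145), without the donor 2 T3+IFNγ arrays of 8 and 24 h (0.0536) or of 8, 24 and 48 h (0.257), and when only the groups compared were fitted. 

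Grik4 and Grik5 encode subunits that bind kainate with high affinity and need a partner such as Grik2 to form a channel. Grik4 rose with T3 by 0.65, 0.40 and 0.57 at 24, 48 and 96 h (SE 0.11, adjusted p = 4.86e-05, 0.00497 and 0.000117) and fell with IFNγ by 0.49, 0.44 and 0.63 at the same times (adjusted p = 0.00386, 0.0067 and 0.000252). At 96 h it stood at 7.03, 7.14 and 7.17 with T3 and at 6.53, 6.53 and 6.38 with T3+IFNγ, next to 6.62, 6.46 and 6.55 in PDGF. The T3+IFNγ arrays thus overlapped the PDGF arrays and lay below every T3 array. The rise at 48 h was lost without donor 2 (adjusted p = 0.132) or donor 3 (0.0633). Without donor 3 the falls had adjusted p = 0.134, 0.2 and 0.0569, and without donor 2 those at 24 and 48 h had 0.0883 and 0.096. The average fall over the 4 times, 0.43 ± 0.05 (adjusted p = 1.69e-06), kept its call in each setting tried. Grik5 moved the other way with IFNγ: its values at 48 h were 6.38, 6.47 and 6.48 with T3 and 7.32, 7.22 and 7.06 with T3+IFNγ, a rise of 0.76 ± 0.21 (adjusted p = 0.0133), and at 8 h it rose by 0.75 ± 0.21 (adjusted p = 0.0334). Both calls were lost without donor 2 (adjusted p = 0.0886 at 48 h and 0.351 at 8 h) or donor 3 (0.0979 and 0.218), and the call at 8 h also without the donor 2 T3+IFNγ arrays of 8 and 24 h (0.154), while the average over the 4 times, 0.54 ± 0.10 higher (adjusted p = 0.000308), was called in each setting. With T3 alone Grik5 rose by 0.79 ± 0.21 at 24 h (adjusted p = 0.00402, lost at 0.0808 when only the groups compared were fitted) and was 1.27 lower at 96 h than at 24 h (adjusted p = 3.68e-05), and its change at 96 h against PDGF, −0.48, was called with donors as blocks (adjusted p = 0.0316, against 0.058 without). Its PDGF values were spread, 5.88 in donor 1 beside 6.91 and 6.80. Grik1 and Grik3 were not detected, with highest group means of 4.56 and 4.38, and were not called in any comparison.

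Of the NMDA receptor genes, Grin2c moved late. Grin2c encodes a glutamate-binding subunit that gives channels with weak magnesium block. Its signal was 6.40, 6.45 and 6.22 in PDGF, 7.31, 7.35 and 7.19 with T3 at 96 h and 6.63, 6.68 and 6.48 with T3+IFNγ at 96 h. The 3 groups did not overlap, and the T3+IFNγ arrays lay between the others. The rise with T3 was 0.36 ± 0.10 at 48 h (adjusted p = 0.0054, lost without donor 3 at 0.167) and 0.93 ± 0.10 at 96 h (adjusted p = 3.88e-08), and the fall with IFNγ at 96 h 0.69 ± 0.10 (adjusted p = 2.28e-05). Grin1, the obligate subunit, had no call with T3 and differed with IFNγ at 96 h by −0.36 ± 0.11 (adjusted p = 0.0306), from 6.76, 6.44 and 6.63 to 6.44, 6.12 and 6.19. That call was lost when any 1 of the donors was left out (adjusted p = 0.0828, 0.115 and 0.256 without donors 1, 2 and 3), and the mean of its probe sets differed by −0.16. Grin2a had group means between 6.09 and 6.21 and no call. Grin3a, whose subunit lowers calcium entry, was not detected and fell by 0.48 ± 0.14 with IFNγ at 24 h (adjusted p = 0.0251), lost without donor 2 (0.233) or donor 3 (0.294). Grin2b, Grin2d and Grin3b were not detected and not called. Grid1, the delta receptor, rose by 0.45 ± 0.15 with T3 at 48 h (adjusted p = 0.0165, lost at 0.0821 without donor 2 and 0.206 without donor 3).

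Among the metabotropic glutamate receptors the changes lay in genes at a low signal. Grm3 and Grm7 both encode receptors that lower cyclic AMP through inhibitory G proteins. Grm3 stood at 4.22, 4.42 and 4.48 in PDGF and 5.97, 5.38 and 5.26 with T3 at 96 h, but at 3.55, 4.41 and 3.89 with T3+IFNγ at 96 h. Grm7 stood at 3.32, 3.33 and 3.43 in PDGF, 4.44, 5.68 and 5.34 with T3 at 96 h and 3.32, 3.96 and 3.73 with T3+IFNγ. For both genes every T3 array at 96 h was above every PDGF and T3+IFNγ array, though all 27 arrays were below the detection level of 5.99. Grm3 rose with T3 at 96 h by 1.16 ± 0.20 (adjusted p = 3.22e-05) and fell with IFNγ by 1.59 ± 0.20 (adjusted p = 3.85e-06). Grm7 rose by 1.80 ± 0.21 (adjusted p = 1.7e-07), after 0.78 ± 0.21 at 48 h (adjusted p = 0.00438), and fell with IFNγ at 96 h by 1.48 ± 0.21 (adjusted p = 2.12e-05). These calls held in each setting that tested genes below the detection level. Differences between signals near background understate a change. Grm8, the detected member of this class, had group means between 6.57 and 7.09 and no call. Grm2, Grm4, Grm5 and Grm6 were not detected and not called.

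**Figure D5:**
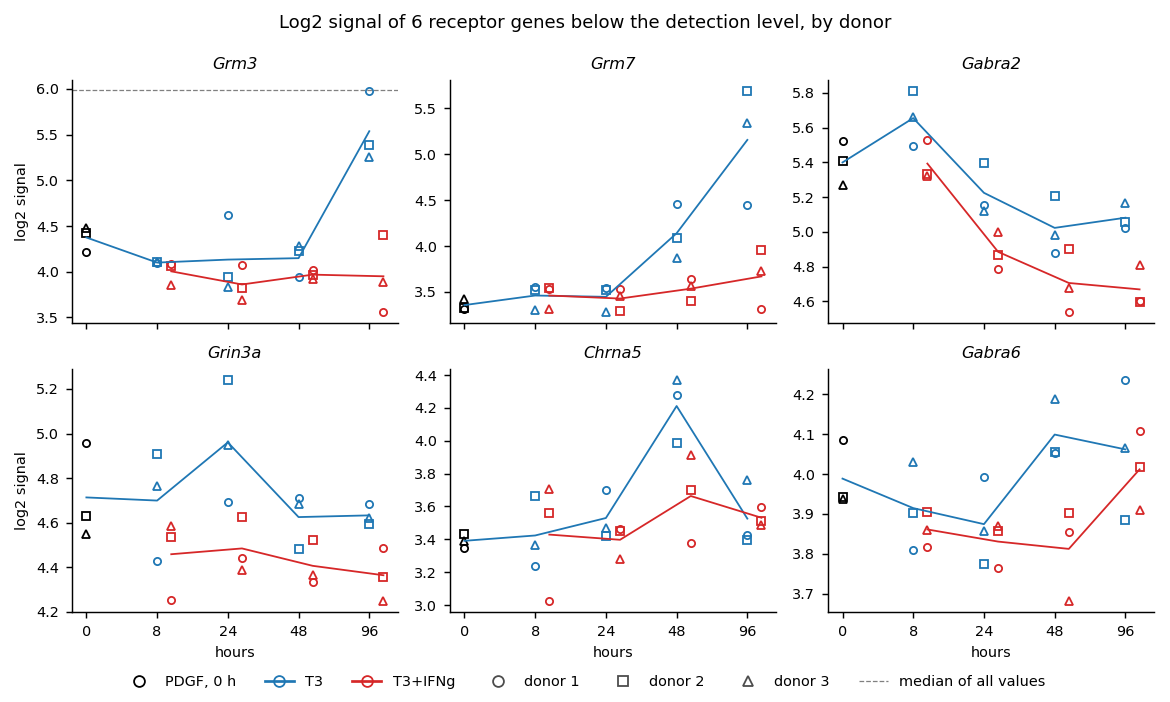
Log2 signal (y axis, a scale for each gene) of the 6 receptor genes that were called with IFNγ and lay below the detection level in every group, by hours in T3 (blue) or T3+IFNγ (red, drawn slightly to the right), with PDGF at 0 h in black; symbols are donors and lines join group means. Grm3 and Grm7 stand apart with T3 at 96 h, where each of the 3 T3 arrays lies above the T3+IFNγ arrays.

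GABA-A receptor genes split by subunit. Gabrg1, a gamma subunit that helps to set the response to benzodiazepines, rose with T3 at each time, and was 2.04 ± 0.21 higher at 96 h than at 24 h of T3 (adjusted p = 8.66e-08, in the comparison added after the values had been seen). Its signal was 6.82, 6.38 and 6.64 in PDGF, 7.27, 7.75 and 7.73 with T3 at 24 h and 9.88, 9.48 and 9.53 with T3 at 96 h. With T3+IFNγ it was 6.53, 6.28 and 6.65 at 24 h and 7.89, 8.24 and 8.56 at 96 h. At 24 h the T3+IFNγ arrays overlapped the PDGF arrays and lay below the T3 arrays, and at 96 h they lay between PDGF and T3 with no overlap. The rises with T3 were 0.98, 0.97, 0.76 and 3.01 at 8, 24, 48 and 96 h (SE 0.21, adjusted p = 0.0045, 0.000838, 0.00541 and 4.72e-11), the last 8.07-fold. The falls with IFNγ were 1.10 at 24 h and 1.40 at 96 h (SE 0.21, adjusted p = 0.000857 and 4.44e-05), or 2.14-fold and 2.63-fold. The calls with T3 at 8 and 48 h were lost without donor 2 (adjusted p = 0.0726 and 0.0672) or donor 3 (0.0652 and 0.0764), and the fall at 24 h without donor 2 (0.0572), while those at 96 h were kept in each setting.

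Gabrb1 and Gabrb2, beta subunits that hold part of the GABA binding site, went in opposite directions. Gabrb1 went from 6.69, 6.33 and 6.58 in PDGF to 7.77, 7.86 and 7.93 with T3 at 96 h, a rise of 1.32 ± 0.17 (adjusted p = 4.24e-07), and was also called higher at 8, 24 and 48 h, by 0.74, 0.63 and 0.49. Each of those 3 calls was lost without donor 2 (adjusted p = 0.124, 0.101 and 0.154) or donor 3 (0.0672, 0.108 and 0.2). Gabrb2 went from 5.77, 5.80 and 5.66 to 4.72, 4.95 and 4.77 at 96 h, a fall of 0.93 ± 0.18 (adjusted p = 0.000157), after falls of 0.63 at 24 h (lost without donor 2, adjusted p = 0.0752) and 0.81 at 48 h. In neither gene did the 96 h arrays overlap the PDGF arrays. The detection of Gabrb2 rests on the 8 h groups, with 6.54, 6.10 and 5.69 in T3 and 6.93, 6.79 and 6.27 in T3+IFNγ, and its other probe set, at a mean of 4.46, differed by 0.16 at 96 h (adjusted p = 0.238). With IFNγ at 8 h Gabrb1 fell by 0.59 ± 0.17 (adjusted p = 0.0368) and at 24 h it differed by 0.28 (adjusted p = 0.328), and the call at 8 h was lost without donor 2 (adjusted p = 0.627), without donor 3 (0.28) and without the donor 2 T3+IFNγ arrays of 8 and 24 h (0.175). 

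Of the other GABA-A subunits, the alpha genes Gabra4 and Gabra2 were lower with IFNγ. Gabra4 fell by 0.39 at 8 h and 0.43 at 48 h (SE 0.11, adjusted p = 0.0333 and 0.00838) and by 0.31 ± 0.05 on average (adjusted p = 0.000134). Its values at 48 h were 5.66, 5.96 and 5.97 with T3 and 5.48, 5.36 and 5.48 with T3+IFNγ, without overlap but all below the detection level. The detection of Gabra4 rests on the T3 group at 8 h (mean 6.20), which enters the fall at 8 h and the average. The call at 8 h was lost without donor 1, 2 or 3 (adjusted p = 0.0606, 0.741 and 0.12) and without the donor 2 T3+IFNγ arrays of 8 and 24 h (0.222), that at 48 h without donor 2 or 3 (0.174 and 0.13), and that of the average in no setting. Gabra2, not detected, fell by 0.41 ± 0.11 with IFNγ at 96 h (adjusted p = 0.0163, lost at 0.106 without donor 2 and 0.142 without donor 3) and by 0.33 ± 0.06 on average (adjusted p = 8.7e-05). It fell with T3 by 0.38 at 48 h and 0.32 at 96 h, calls that were lost when the arrays were centred on their medians (−0.25 and −0.16), without donor 1 (adjusted p = 0.151 and 0.159) and without donor 3 at 48 h (0.0596) or donor 2 at 96 h (0.0809). Gabra6, not detected, fell by 0.29 ± 0.09 with IFNγ at 48 h (adjusted p = 0.0361), and was not called without donor 2 (0.126) or donor 3 (0.515) or as a mean of its probe sets. Gabrd, a delta subunit of receptors outside synapses, was detected and had no call in the 8 comparisons, with changes between −0.26 and 0.25. Gabrq, not detected, rose by 0.31 with T3 at 96 h (adjusted p = 0.0288), lost without donor 2 (0.252) or donor 3 (0.0643).

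The GABA-B receptor works as a pair, in which Gabbr1 binds GABA and Gabbr2 couples to the G protein, and the 2 genes differed in what moved them. Gabbr2 stood at 6.52, 7.02 and 6.82 in PDGF and at 8.38, 8.08 and 8.14 with T3 at 24 h. It rose with T3 by 0.96, 1.41, 0.70 and 1.11 at 8, 24, 48 and 96 h (SE 0.19, adjusted p = 0.00246, 3.61e-06, 0.00478 and 3.32e-05), without overlap with PDGF, and these calls held in each setting tried. With IFNγ it differed by −0.08, 0.16, 0.17 and 0.32 (adjusted p = 0.92, 0.698, 0.641 and 0.331). Its other probe set, at a mean of 4.74, was not called with T3. Gabbr1 stood at 9.88, 9.87 and 9.70 in PDGF and 9.80, 9.80 and 9.69 with T3 at 48 h, and at 10.39, 10.35 and 10.10 with T3+IFNγ at 48 h, above each T3 and PDGF array. It rose with IFNγ by 0.37 ± 0.10 at 24 h (adjusted p = 0.0192) and 0.52 ± 0.10 at 48 h (adjusted p = 0.00114), and by 0.32 ± 0.05 on average (adjusted p = 5.09e-05). The call at 24 h was lost without donor 1, 2 or 3 (adjusted p = 0.0529, 0.174 and 0.142), without the donor 2 T3+IFNγ arrays of 8 and 24 h (0.0539) and when the arrays were centred on their medians, that at 48 h without donor 2 (0.0753), and that of the average in no setting. With donors as blocks the difference at 96 h, 0.26, was also called (adjusted p = 0.0191, against 0.11 without blocks). Gabbr1 has 5 probe sets, and 1 of the others rose with IFNγ by 0.81, 0.99 and 0.81 at 24, 48 and 96 h. Another rose with T3 by 0.82, 0.59 and 0.79 at 24, 48 and 96 h, times at which the one used here was not called.

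Chrm3 fell with T3 in every donor. It encodes the M3 muscarinic receptor, which acetylcholine uses to raise calcium through Gq. Its signal was 8.56, 7.68 and 7.87 in PDGF, 6.11, 6.90 and 7.10 after 8 h of T3, 5.60, 5.34 and 5.30 after 24 h, 5.71, 5.76 and 5.17 after 48 h and 5.03, 4.94 and 4.73 after 96 h. The PDGF arrays lay above all T3 arrays, and from 24 h on the T3 arrays were below the detection level, so those values may understate the fall. The falls were 1.33, 2.62, 2.49 and 3.14 at 8, 24, 48 and 96 h (SE 0.26, adjusted p = 0.00232, 5.25e-08, 8.42e-08 and 8.78e-10), the last 8.81-fold, and the call at 8 h was lost when only the 2 groups compared were fitted. A second probe set fell too, by 0.47, 0.65, 0.44 and 0.72. With IFNγ Chrm3 differed from T3 by 0.67 ± 0.26 at both 48 and 96 h (adjusted p = 0.0938 and 0.104, not called). At 96 h the T3+IFNγ values, 5.39, 5.66 and 5.65, were above the T3 values in 3 of 3 donors without overlap. Chrm5 had group means between 6.14 and 6.45 and a rise of 0.19 with T3 at 48 h (adjusted p = 0.0427) that was lost without donor 1, 2 or 3 (adjusted p = 0.154, 0.311 and 0.0835), with trend and robust moderation and when only the groups compared were fitted. Chrm1, not detected, rose by 0.37 and 0.33 with T3 at 48 and 96 h, calls that were lost without donor 2 (adjusted p = 0.113 and 0.193) or donor 3 (0.158 and 0.115).

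The nicotinic subunits stayed near or below the detection level. Chrng, the fetal muscle subunit, went from 6.21, 6.12 and 5.75 in PDGF to 6.78, 6.45 and 6.56 with T3 at 96 h, a rise of 0.57 ± 0.15 (adjusted p = 0.00296). Chrna7, whose subunit forms a calcium-permeable channel by itself, had group means between 6.02 and 6.27 and no call. Chrna5, an accessory subunit, was not detected, and stood at 4.28, 3.99 and 4.37 with T3 at 48 h against 3.35, 3.43 and 3.39 in PDGF and 3.37, 3.70 and 3.91 with T3+IFNγ. It rose with T3 at 48 h by 0.82 ± 0.16 (adjusted p = 0.000181) and fell with IFNγ by 0.55 ± 0.16 (adjusted p = 0.0194, lost at 0.11, 0.0925 and 0.0833 without donors 1, 2 and 3, and at 0.0558 without the donor 2 T3+IFNγ arrays of 8, 24 and 48 h), and at 96 h of T3 it was back at 3.42, 3.39 and 3.76. Chrna4, not detected, rose by 0.62 and 0.54 with T3 at 24 and 96 h, the latter lost without donor 2 (adjusted p = 0.0529) or donor 3 (0.0682). The other 12 nicotinic subunits were not called in the 8 comparisons. In several other settings 1 of them, Chrna2, not detected, was called lower with IFNγ at 96 h, as with donors as blocks (−0.34, adjusted p = 0.0445).

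Of the 3 adrenergic and serotonin receptors detected, Adra2a was called with T3 and with IFNγ. Adra2a encodes the alpha-2A adrenergic receptor, which noradrenaline uses to lower cyclic AMP. Its signal was 5.34, 5.69 and 5.65 in PDGF, 6.61, 6.85 and 6.88 with T3 at 24 h and 7.22, 7.46 and 7.37 with T3 at 96 h. With T3+IFNγ it was 5.81, 6.25 and 5.95 at 24 h and 6.38, 6.02 and 6.51 at 96 h. At both times the T3+IFNγ arrays lay between the PDGF and the T3 arrays without overlap. The rises with T3 were 1.22, 1.34 and 1.79 at 24, 48 and 96 h (SE 0.17, adjusted p = 4.97e-06, 1.08e-06 and 5.87e-09), the last 3.46-fold, and the falls with IFNγ 0.77 at 24 h and 1.05 at 96 h (SE 0.17, adjusted p = 0.0031 and 0.000105). The fall at 24 h was lost without donor 3 (adjusted p = 0.117). At 48 h the donors disagreed, with 7.04, 6.50 and 6.48 in T3+IFNγ beside 6.82, 6.99 and 6.87 in T3. A second probe set, at a mean of 3.94, rose with T3 by 0.42 at 48 h and 0.33 at 96 h and differed with IFNγ at 96 h by −0.30 (adjusted p = 0.0795). Adra2b had group means between 6.39 and 6.66 and no call, and of the beta receptors Adrb1, not detected, rose by 0.30 ± 0.12 with T3 at 96 h (adjusted p = 0.0427), lost without donor 1 (0.584) or donor 3 (0.0532) and when only the groups compared were fitted. Htr4, which raises cyclic AMP, had group means between 5.88 and 6.11 and no call. Of the serotonin receptors not detected, Htr5b fell by 0.57, 0.51 and 0.65 with T3 at 24, 48 and 96 h and Htr2c rose by 0.46 at 96 h, and 11 were not called. The calls of Htr5b were lost without donor 1 (adjusted p = 0.0844, 0.0971 and 0.0732), those at 24 and 48 h also without donor 2 (0.0511 and 0.103) and that at 24 h without donor 3 (0.0551). At 24 and 48 h they were also lost when the arrays were centred on their medians and when only the groups compared were fitted. The call of Htr2c was lost without donor 2 (0.0859) or donor 3 (0.189).

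The detected genes called higher with T3 at 96 h and lower with IFNγ at 96 h were Gabrg1, Grin2c, Adra2a and Grik4. For Gabrg1 and Adra2a the RefSeq window, the 250 bases before a transcript start on assembly GRCr8, adjoins the start of the gene, and both are given for that reason. The windows of Grin2c and Grik4 precede transcript starts that lie 926 and 126688 bases inside the gene and are not shown. The regions, both on the plus strand, are chr14:37750042-37750291 for Gabrg1 and chr1:263066530-263066779 for Adra2a.
Gabrg1: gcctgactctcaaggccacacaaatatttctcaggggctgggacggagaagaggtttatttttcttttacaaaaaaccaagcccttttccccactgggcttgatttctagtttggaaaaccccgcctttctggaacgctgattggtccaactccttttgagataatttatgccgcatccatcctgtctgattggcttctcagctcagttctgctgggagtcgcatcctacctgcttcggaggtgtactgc
Adra2a: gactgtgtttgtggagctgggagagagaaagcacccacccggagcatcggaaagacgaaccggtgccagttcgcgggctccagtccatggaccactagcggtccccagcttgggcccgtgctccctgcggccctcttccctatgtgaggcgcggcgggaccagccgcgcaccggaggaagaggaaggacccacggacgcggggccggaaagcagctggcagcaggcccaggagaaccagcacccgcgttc
Both strands were searched for the interferon gamma-activated site TTCNNNGAA, the interferon-stimulated response element core, which is GAAA, any 2 bases and GAAA, and AGGTCA, the hexamer that nuclear receptors such as the T3 receptor bind, and neither window holds these letters, so none are in capitals. Of 19334 rat windows that adjoin a gene's start, 8.06% hold the activated site, 3.59% the response element core and 14.4% AGGTCA. Of the 63 receptor genes in the table of windows, 32 have one that adjoins the gene's start, of which 2 hold the activated site (Htr1f and Htr2c), 1 the response element core (Adra2b) and 2 AGGTCA (Chrna1 and Chrnb2). A match is a description of the letters, not a binding site.

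Whether the effect of IFNγ differed between 8 h and 96 h was tested as an interaction. It was called for 4 of the 85 genes (4.71%, beside 4.32% of all genes), 0 higher and 4 lower (beside 2.24% and 2.08%), namely Gabrg1, Grin2c, Grm3 and Grm7. In these the change with IFNγ was lower at 96 h than at 8 h by 1.06 ± 0.30, 0.51 ± 0.14, 1.49 ± 0.28 and 1.48 ± 0.30 (adjusted p = 0.0441, 0.0376, 0.00242 and 0.00414). No receptor gene was called without donor 2 or donor 3. Without donor 1, 2 were called lower, Grm3 and Grm7, and 2 higher, Chrm3 and Grik2 (1.20 and 0.81, adjusted p = 0.0319 and 0.014). With donors as blocks Grik4 (−0.45) and, higher, Htr3b (0.45) were called as well, and as means of probe sets Gria3 (0.73). The call of Grin2c was lost when the arrays were centred on their medians (adjusted p = 0.0557) and with trend and robust moderation (0.0552), and when only the groups compared were fitted Grm3 alone was called. At 8 h these genes had changes with IFNγ of −0.33, −0.18, −0.10 and 0.00, not called. For Chrm3 and Grik2 the same difference was 0.93 and 0.73 (adjusted p = 0.196 and 0.107).

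The genes of proteins that anchor and modulate these receptors were called in both directions with T3, as were all genes. Of 28 glutamate receptor partners measured, 4 were higher (14.3%, beside 23.4% of all genes) and 9 lower (32.1%, beside 29.5%) with T3 at 96 h. Camk2b, a kinase of the postsynaptic density, fell by 2.76 ± 0.34 (adjusted p = 2.56e-07), Neto2, an auxiliary subunit of kainate receptors, by 1.80, and Cnih2, an auxiliary AMPA subunit, by 1.73, while the scaffold Dlg1 rose by 1.79 ± 0.12 (adjusted p = 3.21e-11). Neto1, a relative of Neto2, was not detected and fell by 1.93. With IFNγ at 96 h, Cnih2 and the scaffold Dlg3 rose, by 0.67 and 1.03, and no other partner of this list was called. These are 7.14% higher and 0% lower, beside 7.91% and 5.63% of all genes. Of 17 partners of GABA, acetylcholine and glycine receptors, 6 rose and 5 fell with T3 at 96 h, among them Glrb, the glycine receptor beta subunit, higher by 3.04 ± 0.17 (adjusted p = 9.21e-13), Gabarapl1, a relative of the protein that traffics GABA-A receptors, higher by 1.17, and Agrn, which clusters nicotinic receptors, lower by 1.87. These are 35.3% and 29.4% of the list, beside 23.4% and 29.5% of all genes. With IFNγ at 96 h 1 gene of this list was called higher and 2 lower (5.88% and 11.8%, beside 7.91% and 5.63% of all genes). Among them Glrb fell by 0.51 and Agrn rose by 0.83 (adjusted p = 0.046 and 0.0102). The calls of partner genes, here and below, were not checked with donors left out or in the other settings.

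Genes that clear or make transmitters, and the G proteins behind the receptors, also included called genes. Of 29 transporters and enzymes, 8 rose (27.6%, beside 23.4% of all genes) and 3 fell (10.3%, beside 29.5%) with T3 at 96 h. Glul, which turns glutamate into glutamine, rose by 2.25 ± 0.15 (adjusted p = 2.47e-11), Maob, which breaks down monoamines, by 2.11 ± 0.20 (adjusted p = 6.33e-09) and Abat, which breaks down GABA, by 1.05 ± 0.15, while the amino acid transporter Slc1a4 fell by 1.59 ± 0.31 (adjusted p = 0.000115). With IFNγ at 96 h Maob rose by 0.95, the glycine transporter Slc6a9 fell by 0.55, and the cholinesterase Bche, not detected, fell by 0.48. These are 3.45% higher and 6.9% lower, beside 7.91% and 5.63% of all genes. Of 28 G protein partners, 8 rose (28.6%) and 11 fell (39.3%) with T3 at 96 h, beside 23.4% and 29.5% of all genes. With IFNγ at that time 2 rose and 2 fell (7.14% each, beside 7.91% and 5.63% of all genes). Among them Gnai1, an inhibitory G protein subunit, fell by 1.26 ± 0.17 (adjusted p = 1.4e-05), while Rgs2, which turns off Gq, rose by 2.26 ± 0.24 (adjusted p = 2.96e-07). The median change of these 2 lists with T3 at 96 h was 0.21 and −0.04, beside 0.01 over all genes.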

How the data were processed

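RNA of 27 cultures was measured on Affymetrix rat arrays. The deposited values are log2 signals, 1 for each of 31099 probe sets, which the authors computed with RMA (background correction, quantile normalization and summary by probe set) and, per the labels' processing notes, compared with limma; versions are not given in the sources used here. The table has no detection calls or counts, so precision rests on 3 arrays a group. Groups and donors came from the sample labels.

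The platform annotation of 2016 names 1 gene for 20826 probe sets, several for 436 and none for 9837. The probe set with the highest mean stood for each of 14217 genes. Of the 85 receptor genes, 29 had several probe sets, 0 with calls in opposite directions. All 85 matched RefSeq (GRCr8) by Entrez identifier, and Grina and Htra1 to Htra3, which share letters only, were left out. The detection level was the median of all values, 5.99.

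limma 3.58.1 in R 4.3.3 (lmFit and eBayes) fitted 1 mean per group over all 27 arrays, with Benjamini-Hochberg adjustment over all genes in each comparison and calls at an adjusted p below 0.05. Tables came from pandas 2.3.3 and NumPy 2.4.6, and plots from matplotlib 3.10.9, under Python 3.11.15. The fit was tested on simulated data. Replicate numbers are donors and so pair the arrays: their deviations from group means correlated with a median r of 0.310 within donors and −0.171 across donors. Alternatives were donors as a block or random block, median centring, detected genes only, means of probe sets, another moderation, the compared groups alone, donors or the donor 2 T3+IFNγ arrays of 8 and 24 h left out, a 2-fold limit and, chosen after seeing the data, the donor 2 T3+IFNγ arrays of 8, 24 and 48 h left out. Named were detected genes called at a log2 change of at least 0.58 with T3 or IFNγ, genes called with IFNγ, the member of each class with the highest signal, and up to 4 called genes of each partner list; other genes were added so that each class was accounted for. Members and lists were chosen with earlier results of these data known.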

Additional observations from a re-analysis of the deposited data

Results flagged for a closer look

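The change with IFNγ at 96 h differed from that at 8 h in 4 receptor genes by a test of the difference (limma interaction). These are 4.71% of the 85, beside 4.32% of all genes, and no receptor gene was called without donor 2 or donor 3. Gabrg1 differed by −1.06 on the log2 scale, Grin2c by −0.51, Grm3 by −1.49 and Grm7 by −1.48, each lower at 96 h in 3 of 3 donors, and Grm3 and Grm7 were below the detection level. In 4 more genes all 3 donors moved one way at 1 time and the opposite way at another, and these differences were not tested. The share of all genes that did so was not counted, so this count has no background. For Gabrb1 the change with IFNγ at 24 h minus that at 8 h was 0.87, and that at 96 h minus that at 24 h was −0.56. For Gria2 the change at 48 h minus that at 8 h was 0.40. For Grik2 the change at 96 h was above that at 24 h by 0.74 and above that at 48 h by 0.93. For Grm8 the change at 48 h minus that at 24 h was −0.46.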

How the results depend on the processing

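Of 84 calls of named receptor genes, 41 held in every setting that tested them and 0 were reversed, though the splits of counts with IFNγ moved. With donors as a replicate block 0 were lost and 10 gained, and the count with IFNγ at 48 h was 12 in place of 7; as a random block the counts at 8 and 48 h were 5 and 12. Fitting only the groups compared lost 16 calls, with 1, 3 and 4 genes with IFNγ at 8, 24 and 48 h and 1 for the interaction. The split with IFNγ at 48 h was then 2 higher and 2 lower in place of 2 and 5, and it was 1 and 0 without donor 3. That at 8 h was 2 higher and 1 lower without donor 1, in place of 1 and 2. Without the donor 2 T3+IFNγ arrays of 8 and 24 h the count with IFNγ at 8 h was 0 in place of 3, and it was also 0 without those of 8, 24 and 48 h, a setting chosen after seeing the data that lost 6 calls. With genes at or above the detection level alone, which leaves out 61 receptor genes, T3 gave 10 at 48 h and 11 at 96 h, the IFNγ average 9 and the interaction 2. Median centring gave 38 with T3 at 96 h and 22 for the IFNγ average, and it turned the split with IFNγ at 24 h from 1 higher and 4 lower to 0 and 5. At a change of at least 2-fold the counts were 0, 1, 0 and 4 with IFNγ at 8, 24, 48 and 96 h, 1, 3, 2 and 7 with T3, and 0 for the IFNγ average. The share of all genes at that limit was not counted. A detection level of 7 left 15 genes in place of 24, and taking the mean of each gene's probe sets left 16. With 1 donor left out the counts ran from 0 to 3, 1 to 5, 0 to 9 and 5 to 10 with IFNγ at 8, 24, 48 and 96 h, from 2 to 4, 8 to 16, 8 to 15 and 16 to 22 with T3, from 10 to 17 for the IFNγ average and from 0 to 4 for the interaction. Leaving out donor 1, 2 or 3 lost 10, 34 and 36 of the named calls; these fits have fewer samples. The cause of the other differences was not tested. Signals below 5.99 limit what 61 genes can show.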
